A study of Mus musculus with 14 samples.

Results

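The genes that activate, carry, oxidise, elongate, bind and release fatty acids were followed in 4 selected lines of MIN6, an insulin-secreting beta-cell line from mouse pancreas. Members were all probes with a single gene symbol, updated through its Entrez number, that begins with Acot, Acad, Acsl, Acsm, Acss, Acsbg, Acox, Cpt, Elovl, Fabp, Hadh, Ech or Eci followed by the family's number or letter. The rule found 56 genes on 58 probes, of 15099 genes on 16885 singly named probes. All 58 probes were tested; Acot11 and Fabp9 each had 2. The array's symbols come from an old annotation, and the probe sequences were not used here, so where in its transcript a probe lies is not known.

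The study asked how the RNA of these cells differs when Sirt1, a deacetylase that uses NAD, is raised or lowered. Sir2OE1 and Sir2OE2 are a pair of independent lines infected with the pBabe-Sirt1 retrovirus, which carries mouse Sirt1 and neomycin resistance, and selected in 280 micrograms per ml of G418. Each was hybridised against a pool of RNA from Neo1 and Neo2, lines that carry the empty pBabe-neo virus. Sir2KD1 and Sir2KD2 are a pair of independent lines made by transfection with mU6pro vectors for 2 different small interfering RNAs against Sirt1 together with a neomycin marker plasmid, and selected in 400 micrograms per ml. Each was hybridised against the line mU6pro, which carries the vector alone. All lines came from MIN6 at passage 24, carried drug resistance and spent 4 days in 5 mM glucose before RNA was taken. Sir2OE1 and Sir2KD1 had 3 arrays each, and Sir2OE2 and Sir2KD2 had 4 each. Nothing says that the arrays of a line came from separate cultures, so p-values reflect array-to-array spread, which can be technical. Each line is a single selected line, and a difference between lines of the same kind is a difference between those lines. Lines of a kind were read against the same control RNA, so a level particular to that control would shift both alike. Their agreement, given below over all arrays of a kind, is therefore not independent.

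The deposited values are log2 ratios of the array's channels, with a direction not given in the sources used here. They had been centred per probe within each kind of line. Arrays with the modified line in channel 1 had their sign turned, which assumes that the values are channel 2 over channel 1. The values do not settle that assumption. With channel 1 over channel 2 in both kinds, every side below would turn and the calls would stay. Every member call below rests on the values following the channel. The values were also read as line over control already, with the centring undone and no dye term. None of the member calls in any of the 7 comparisons was then shared with those given here. The channels were exchanged between slides of each line, so a difference that follows the channel partly or wholly cancels in that fit. Little sharing was thus built in, and its lack tests neither reading. The centring was undone by taking the smallest whole numbers in proportion to a probe's ratios, which loses any common factor. That fit thus differs in several ways at once and cannot show which reading holds. The value with its sign turned is called the turned log2 ratio. Its sides are called plus and minus, because it is not settled on which side the modified line holds more RNA. Fitted values come from limma on all 14 arrays, with a coefficient for each line and a dye term for each kind. A probe was called when its p-value, adjusted by Benjamini-Hochberg over 23230 probes, was under 0.05. Values of single arrays have the fitted dye term taken off. The ratio is tested against 0, so that no spread among controls enters the test.

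The probe for Sirt1 (probe 5820) was not called in any line. Over the 3 arrays of Sir2OE1 it had a turned log2 ratio of 0.08 ± 0.12 (SE), followed by -0.33 ± 0.10 (n = 4) in Sir2OE2, -0.10 ± 0.12 (n = 3) in Sir2KD1 and 0.12 ± 0.10 (n = 4) in Sir2KD2, with limma adjusted p-values from 0.131 to 0.933. All 4 Sir2OE2 arrays were on the minus side, from -0.47 to -0.22, and all 4 Sir2KD2 arrays on the plus side, from 0.09 to 0.21. If the plus side stands for more RNA in the line, Sirt1 in Sir2OE2 and Sir2KD2 runs against their labels. Sir2OE1 and Sir2KD1 would then lie on the side of their labels, by less than their SE. With the direction unsettled and no call, the values do not check the labels, and each line is named by its label throughout. Files with levels of RNA were not used here, so the cell type could be followed only as ratios. Of 17 probes for 15 beta-cell marker genes, 3 were called in Sir2OE1, 3 in Sir2OE2, 6 in Sir2KD1 and 4 in Sir2KD2, while 1.06%, 2.81%, 3.59% and 1.34% of all probes were called in these lines. The calls went to both sides in every line, and the 2 probes of Ucn3, a hormone of mature beta cells, disagreed in Sir2KD1 at -0.95 ± 0.25 and 2.86 ± 0.16. Of the 6 adipocyte marker genes measured, Fabp4 among them, none was called in any line, and at an unadjusted p under 0.05 none passed either. At that unadjusted threshold 9.61%, 13.2%, 16.8% and 13.4% of all probes passed in Sir2OE1, Sir2OE2, Sir2KD1 and Sir2KD2, against which the unadjusted counts in a line given below are to be read. Of the 7 enterocyte marker genes measured, Fabp1 and Fabp2 among them, 1 was called, in Sir2OE2. Of 7 genes of other islet cells none was called by limma, and at an unadjusted p under 0.05 there were 0, 1, 3 and 2 in Sir2OE1, Sir2OE2, Sir2KD1 and Sir2KD2. In the same order, 2, 2, 1 and 1 of 10 acinar and duct genes and 0, 1, 1 and 1 of 11 hepatocyte genes were called. The beta-cell markers Iapp, G6pc2 and Chga and the hepatocyte marker Ttr shared 1 fitted value in Sir2OE2, -0.4118. In Sir2OE1 Iapp was at -0.2118 and the others at -0.2072. In Sir2KD2 Iapp, Chga and Ttr were at 0.04458, while Ttr differed from the others in Sir2KD1, at -0.474. Whether these probes follow the RNA of their own genes was not tested, so their lack of a call says little about cell type. Acly, a synthesis gene counted below, had the values of Chga in Sir2KD1 (0.06244) and Sir2KD2 (0.04458), and the same limit applies to it. Probes whose ratios nearly matched the most common pattern of their kind, called fixed ratios below, numbered 329 in overexpression and 173 in knockdown. No member was among them. The part of the marker genes in the results below was not tested.

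Fatty acids are first joined to coenzyme A by acyl-CoA synthetases. Long chains are then carried into mitochondria by the carnitine palmitoyltransferases and shortened in repeated rounds by acyl-CoA dehydrogenases, hydratases, hydroxyacyl dehydrogenases and thiolases, while elongases lengthen them in the endoplasmic reticulum, binding proteins carry them in the cytosol and thioesterases release them again. In beta cells, malonyl-CoA made from glucose restrains the carnitine step, and fatty acyl signals act on insulin secretion. In liver and muscle, Sirt1 acts on the oxidation genes through PGC-1alpha and the PPAR receptors.

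Of the 56 genes, 47 were called in no line, 5 in 1 line, 3 in 2 lines, 1 in 3 lines and 0 in all 4. The genes called were Acot11, Acot7, Echdc2, Ech1, Cpt2, Elovl4, Elovl7, Fabp5 and Fabp7, which are 15.5% of the member probes, while 6.4% of all 23230 probes were called in at least 1 line. No acyl-CoA synthetase and no acyl-CoA dehydrogenase or oxidase was among them. In Sir2OE1, 1 member probe was called on the plus side, Fabp7, where 0.469% of all probes were, and 3 on the minus side, Acot11, Acot7 and Echdc2, where 0.594% of all probes were. In Sir2OE2, Fabp5 was called on the plus side, where 1.43% of all probes were, and Acot11, Echdc2, Cpt2, Ech1 and Elovl7 on the minus side, where 1.38% were. In Sir2KD1, no member was called on the plus side, where 1.6% of all probes were, and Elovl4, Echdc2 and Fabp7 were called on the minus side, where 1.98% were. In Sir2KD2, no member was called on the plus side, where 0.603% of all probes were, and Acot7 alone on the minus side, where 0.74% were. The called share of the members was thus 6.9% in Sir2OE1 and 10.3% in Sir2OE2, against 1.06% and 2.81% of all probes. In Sir2KD1 it was 5.17% against 3.59%, and in Sir2KD2 1.72% against 1.34%, which is close to the background. Under the reading of the values as line over control, with other probes called, these comparisons turned out differently. There 6 of 58 member probes were called in Sir2OE1, where 2558 of 23230 probes were, and 2 in Sir2OE2, where 1.98% of all probes were. In Sir2KD1 there were 3, where 1.33% of all probes were called, and in Sir2KD2 1, where 5.86% were. A higher share in both overexpressing lines was thus seen in the reading used here. It is not settled, and the other fit, which also had no dye term, cannot decide it. Without 1 array at a time the counts ran from 2 to 4 in Sir2OE1, from 3 to 7 in Sir2OE2, from 1 to 4 in Sir2KD1 and from 0 to 2 in Sir2KD2; the arrays behind each lost call are named gene by gene below. With each kind fitted on its own arrays, the calls for Acot11 and Echdc2 in both overexpressing lines and for Fabp5 in Sir2OE2 were kept and the others ended. With the slide number as a block, none of the 14 calls in a line was kept; calls over all 23230 probes then fell to 0, 4, 153 and 6 in Sir2OE1, Sir2OE2, Sir2KD1 and Sir2KD2. The 14 values kept their sign, as for Acot11 at -1.99 in Sir2OE1 and Fabp5 at 1.03 in Sir2OE2, while Elovl7 in Sir2OE2 went to -0.37 and Acot7 to -0.86 in Sir2OE1 and -0.57 in Sir2KD2. The median turned log2 ratio of the 58 probes lay at 0.13, 0.04, 0.01 and 0.05 in Sir2OE1, Sir2OE2, Sir2KD1 and Sir2KD2, and that of all probes at -0.00155, -0.00362, 0.0236 and -0.00273.

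**Figure D1:**
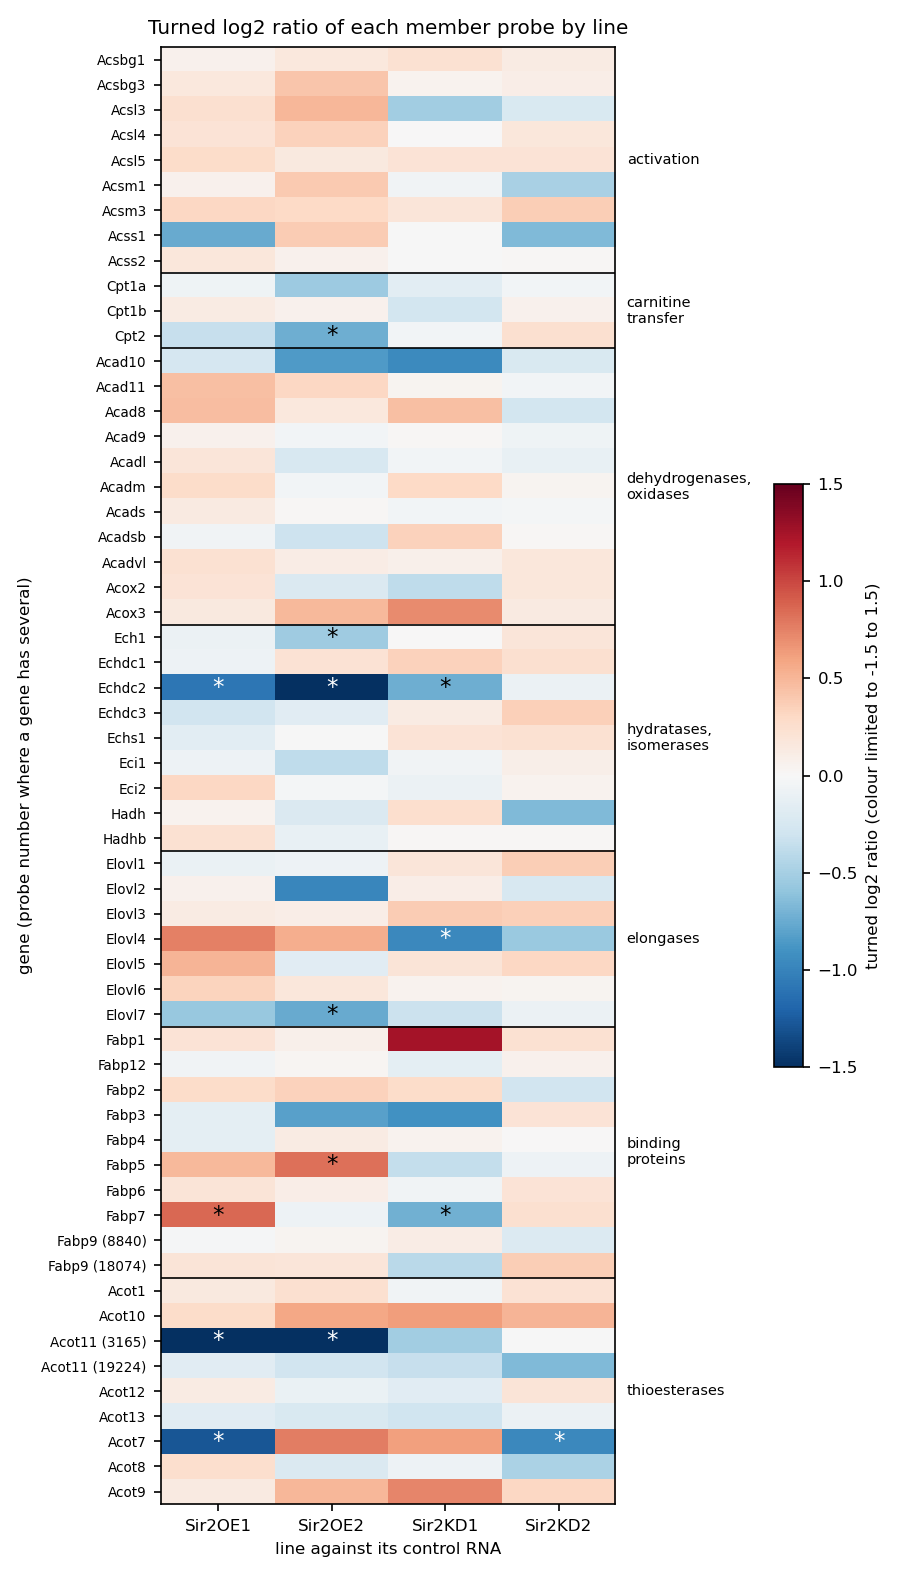
Turned log2 ratio of each of the 58 member probes (rows, grouped by role) in each of the 4 lines (columns) as fitted by limma, with colour limited to -1.5 to 1.5 and an asterisk for an adjusted p under 0.05. Most cells are pale; the asterisks lie in 9 rows, with Echdc2 marked in 3 lines and Acot11 probe 3165 in both overexpressing lines.

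The start regions of 4 called genes are shown because 3 of these genes lie near each other on chromosome 4 and because 3 of the 4 share a short palindrome. They were chosen after the values were seen. The sequences are RefSeq windows of 300 bases around an annotated start in build GRCm38.p6, and 53 such windows matched 48 of the 56 genes. Fabp5 has no window in the table used. Motifs searched on both strands were CACGTG (the E-box core bound by basic helix-loop-helix factors), the CCAAT box, the GC box (GGGCGG), the core site of nuclear receptors (AGGTCA) and a pair of AGGTCA copies 1 base apart, as PPAR receptors bind with RXR. Capitals mark a match, whichever strand it is on, so that CCGCCC stands for the GC box read from the other strand. Acot11 has a pair of annotated starts, at chr4:106804958-106805257 and chr4:106799782-106800081 on the minus strand. The window of Cpt2 is chr4:107923540-107923839 on the minus strand, that of Echdc2 is chr4:108165187-108165486 on the plus strand, and that of Elovl4 is chr9:83806256-83806555 on the minus strand.
Acot11, upstream start: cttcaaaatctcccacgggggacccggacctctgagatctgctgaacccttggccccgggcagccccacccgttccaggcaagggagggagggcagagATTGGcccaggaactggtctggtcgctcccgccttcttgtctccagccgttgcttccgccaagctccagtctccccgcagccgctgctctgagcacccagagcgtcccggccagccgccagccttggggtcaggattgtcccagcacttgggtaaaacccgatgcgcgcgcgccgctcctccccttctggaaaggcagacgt
Acot11, downstream start: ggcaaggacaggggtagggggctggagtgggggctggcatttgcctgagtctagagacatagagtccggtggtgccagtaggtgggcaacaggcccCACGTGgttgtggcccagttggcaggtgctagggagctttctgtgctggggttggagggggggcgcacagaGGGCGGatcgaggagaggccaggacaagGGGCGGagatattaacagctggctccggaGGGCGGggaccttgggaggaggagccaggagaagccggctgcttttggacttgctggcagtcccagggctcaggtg
Cpt2: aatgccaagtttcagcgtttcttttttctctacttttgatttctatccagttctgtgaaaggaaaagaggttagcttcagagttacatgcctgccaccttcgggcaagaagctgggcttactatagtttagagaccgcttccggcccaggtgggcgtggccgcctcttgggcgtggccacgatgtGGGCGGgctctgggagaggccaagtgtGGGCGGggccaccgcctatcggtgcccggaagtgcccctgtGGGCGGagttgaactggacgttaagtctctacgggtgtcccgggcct
Echdc2: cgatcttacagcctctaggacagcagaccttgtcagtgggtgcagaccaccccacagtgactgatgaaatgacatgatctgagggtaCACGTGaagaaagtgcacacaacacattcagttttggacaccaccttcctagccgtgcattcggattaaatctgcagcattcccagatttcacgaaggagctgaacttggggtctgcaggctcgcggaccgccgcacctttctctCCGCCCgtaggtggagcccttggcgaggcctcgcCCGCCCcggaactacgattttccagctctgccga
Elovl4: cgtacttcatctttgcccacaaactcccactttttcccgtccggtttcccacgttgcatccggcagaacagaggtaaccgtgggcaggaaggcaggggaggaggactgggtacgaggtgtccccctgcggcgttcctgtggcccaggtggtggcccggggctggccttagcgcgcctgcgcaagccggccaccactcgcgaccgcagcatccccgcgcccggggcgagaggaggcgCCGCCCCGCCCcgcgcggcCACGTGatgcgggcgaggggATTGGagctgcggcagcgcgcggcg
CACGTG stood in the downstream window of Acot11 and in those of Echdc2 and Elovl4, and among the members otherwise in Elovl5 alone. These are 7.55% of the member windows, and 7.15% of all 32851 windows hold the same letters. The GC box was in 60.4% of member windows and 35.7% of all. CCAAT was in 43.4% and 37.4%. The single AGGTCA was in 20.8% and 16.3%, and the spaced pair was in no member window and in 0.0396% of all. A match describes the letters in this window and names no bound factor.

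Activation held no called gene. All 9 acyl-CoA synthetase genes were tested by limma. At an unadjusted p under 0.05 there were 0 in Sir2OE1, 1 in Sir2OE2, 0 in Sir2KD1 and 0 in Sir2KD2, where 9.61%, 13.2%, 16.8% and 13.4% of all probes passed. Acsl5, which activates long chains, had turned log2 ratios of 0.27 ± 0.13, 0.15 ± 0.11, 0.21 ± 0.13 and 0.20 ± 0.11 (SE) in Sir2OE1, Sir2OE2, Sir2KD1 and Sir2KD2. Acsm3, a medium-chain synthetase, lay between 0.18 and 0.37 with standard errors from 0.252 to 0.298. Acss1, which activates acetate in mitochondria, was at -0.76 ± 0.40 in Sir2OE1, 0.38 ± 0.33 in Sir2OE2, -0.00092 ± 0.395 in Sir2KD1 and -0.67 ± 0.33 in Sir2KD2. Its sign differed between the overexpressing lines, within wide errors. Acss2, the cytosolic acetate enzyme that Sirt1 is known to deacetylate as a protein, lay between -0.00382 and 0.170 and is named for that link, outside the rule for named genes.

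The carnitine step had a called member, Cpt2, the inner-membrane enzyme that turns acylcarnitines back into acyl-CoA. Its 4 Sir2OE2 arrays (probe 5859, chromosome 4) read -0.51, -0.86, -0.84 and -0.75. The 3 Sir2OE1 arrays read -0.68, -0.12 and -0.24. The Sir2KD1 arrays read 0.12, -0.21 and -0.03, and the Sir2KD2 arrays 0.12, 0.19, 0.17 and 0.46. All 7 overexpressing arrays were below 0 and all 4 Sir2KD2 arrays above it, and 1 Sir2OE1 array (slide 2) overlapped the Sir2KD1 arrays. The fitted value in Sir2OE2 was -0.74 ± 0.13 (SE, limma adjusted p = 0.00897), a 1.67-fold difference. In Sir2OE1 it was -0.34 ± 0.15 (adjusted p = 0.491). The call in Sir2OE2 ended without Sir2OE2 slide 2, 3 or 4, with values from -0.73 to -0.69 and limma adjusted p-values from 0.0529 to 0.0763.

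The outer-membrane enzymes were not called. Cpt1a, the form of liver and islets and the step that malonyl-CoA inhibits, stood just outside the threshold in Sir2OE2 at -0.55 ± 0.13 (limma adjusted p = 0.0638). All 4 of its Sir2OE2 arrays were on the minus side, from -0.84 to -0.38. In the other lines Cpt1a lay between -0.16 and -0.05. Cpt1b, the muscle form, lay between -0.28 and 0.12.

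None of the 11 acyl-CoA dehydrogenases and oxidases was called. At an unadjusted p under 0.05 there were 1 in Sir2OE1, 3 in Sir2OE2, 5 in Sir2KD1 and 0 in Sir2KD2, where 9.61%, 13.2%, 16.8% and 13.4% of all probes passed. The nearest was Acad10, a member of the dehydrogenase family, at -0.85 ± 0.21 in Sir2OE2 (limma adjusted p = 0.0653) and -0.96 ± 0.25 in Sir2KD1 (0.0672). Its Sir2OE2 arrays read -0.63, -1.31, -0.39 and -1.09 and its Sir2KD1 arrays -1.43, -0.28 and -1.16. In Sir2OE1 and Sir2KD2 it was at -0.25 and -0.23, so the lines overlapped. Acox3, a peroxisomal oxidase of branched chains, ran from 0.13 in Sir2KD2 to 0.70 ± 0.21 in Sir2KD1 (adjusted p = 0.109). Acad8, which acts on isobutyryl-CoA from valine, was at 0.47 in Sir2OE1, 0.16 in Sir2OE2, 0.45 in Sir2KD1 and -0.28 in Sir2KD2.

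Of the 9 hydratases, isomerases and hydroxyacyl dehydrogenases, Echdc2 and Ech1 were called. Echdc2 (probe 7507, chromosome 4) carries an enoyl-CoA hydratase domain and was the member called in the most lines. Its Sir2OE1 arrays read -1.06, -0.99 and -1.20, and its Sir2OE2 arrays -1.31, -1.78, -1.44 and -1.43. Its Sir2KD1 arrays read -0.73, -0.66 and -0.80, and its Sir2KD2 arrays -0.11, -0.05, -0.01 and -0.16. The arrays of the 4 lines did not overlap: Sir2OE2 lay lowest, then Sir2OE1, then Sir2KD1, and Sir2KD2 lay next to 0. Fitted values were -1.08 ± 0.12 in Sir2OE1 (limma adjusted p = 0.00229, 2.12-fold), -1.49 ± 0.10 in Sir2OE2 (4.96e-05, 2.81-fold), -0.73 ± 0.12 in Sir2KD1 (0.00923, 1.66-fold) and -0.08 ± 0.10 in Sir2KD2 (0.799). Sir2OE1 against Sir2KD1 was not tested, and the lines of a kind were not called different: Sir2OE2 minus Sir2OE1 was -0.41 ± 0.16 (adjusted p = 0.559), and Sir2KD2 minus Sir2KD1 was 0.65 ± 0.16 (adjusted p = 0.123). The Sir2OE1 call ended without Sir2OE1 slide 3 (-0.97, limma adjusted p = 0.0692) and the Sir2KD1 call without Sir2KD1 slide 1 (-0.73, 0.0888). The Sir2OE2 call was kept without each of the 14 arrays in turn.

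Ech1 (probe 21347, chromosome 7) is the dienoyl-CoA isomerase that shifts double bonds of unsaturated chains. It was called in Sir2OE2 alone, where its arrays read -0.49, -0.62, -0.43 and -0.61. The Sir2OE1 arrays read -0.00, -0.13 and -0.13, the Sir2KD1 arrays -0.10, 0.03 and 0.09, and the Sir2KD2 arrays 0.20, 0.26, -0.03 and 0.28. The Sir2OE2 arrays lay below those of every other line. The fitted value was -0.54 ± 0.10 (limma adjusted p = 0.0133, 1.45-fold), and Sir2OE2 minus Sir2OE1 was -0.45 ± 0.15 (adjusted p = 0.413). Without any 1 of the 4 Sir2OE2 slides the call ended, with values from -0.58 to -0.50 and limma adjusted p-values from 0.0539 to 0.107.

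Acadvl, Acadl, Acadm, Acads, Echs1, Hadh, Hadhb, Eci1 and Eci2 encode enzymes of the mitochondrial rounds themselves, a list drawn up after the values were seen. Ech1, the called isomerase described above, is not on the list. None of these 9 genes was called in any line, which describes the genes chosen and is no test. At an unadjusted p under 0.05, limma gave 0 in Sir2OE1, 1 in Sir2OE2, 0 in Sir2KD1 and 1 in Sir2KD2. The gene in Sir2OE2 was Eci1, an enoyl-CoA isomerase, at -0.38 ± 0.11 (limma unadjusted p = 0.0048, adjusted p = 0.108), and that in Sir2KD2 was Hadh at -0.66 ± 0.24 (unadjusted p = 0.0185). Turned log2 ratios ran from -0.16 (Echs1) to 0.31 (Eci2) in Sir2OE1, from -0.38 (Eci1) to 0.11 (Acadvl) in Sir2OE2, from -0.09 (Eci2) to 0.30 (Acadm) in Sir2KD1, and from -0.66 (Hadh) to 0.22 (Echs1) in Sir2KD2. The 95% intervals of single genes reached from -0.57 to 0.68 in Sir2OE1, from -0.75 to 0.40 in Sir2OE2, from -0.43 to 0.87 in Sir2KD1 and from -1.19 to 0.49 in Sir2KD2. These intervals show how large a difference the arrays could have missed. Hadh, the short-chain hydroxyacyl dehydrogenase that restrains insulin release in beta cells, was at -0.66 ± 0.24 in Sir2KD2 (limma adjusted p = 0.249) and between -0.22 and 0.25 in the other lines. Echdc1, which removes ethylmalonyl-CoA, lay between -0.08 and 0.35.

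Among the 7 elongases, Elovl4 and Elovl7 were called, on the minus side of different lines. Elovl4 (probe 19527, chromosome 9) makes the very long chains of retina, skin and brain. Its Sir2OE1 arrays read 0.82, 1.06 and 0.40 and its Sir2OE2 arrays 0.45, 0.28, 0.67 and 0.79. Its Sir2KD1 arrays read -0.53, -0.88 and -1.47 and its Sir2KD2 arrays -0.51, -1.04, -0.52 and -0.17. All 7 overexpressing arrays were above 0 and all 7 knockdown arrays below it, while the lines of a kind overlapped. Only Sir2KD1 was called, at -0.96 ± 0.22 (limma adjusted p = 0.0428, 1.95-fold). The others were 0.76 ± 0.22 (0.209), 0.55 ± 0.19 (0.217) and -0.56 ± 0.19 (0.218) in Sir2OE1, Sir2OE2 and Sir2KD2. The Sir2KD1 call was kept without Sir2KD1 slide 1, Sir2KD2 slide 2 or Sir2OE1 slide 3, and ended without any of the other 11 arrays, with values up to -0.71 and limma adjusted p-values from 0.0510 to 0.181.

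Elovl7 (probe 11783, chromosome 13), which lengthens saturated long chains, was called in Sir2OE2. Its arrays read -0.67, -1.09, -0.76 and -0.51 there and -0.37, -0.52 and -0.81 in Sir2OE1, so the overexpressing lines overlapped. The Sir2KD1 arrays read -0.45, -0.02 and -0.49 and the Sir2KD2 arrays 0.19, -0.23, -0.63 and 0.32, and both overlapped the overexpressing ones. The fitted values were -0.57 ± 0.20, -0.76 ± 0.17, -0.32 ± 0.20 and -0.09 ± 0.17 in Sir2OE1, Sir2OE2, Sir2KD1 and Sir2KD2, with limma adjusted p = 0.0448 in Sir2OE2. That call ended without any 1 of 10 arrays, namely each Sir2OE2 slide, Sir2OE1 slides 1 and 2, Sir2KD1 slides 1 and 3 and Sir2KD2 slides 1 and 2, with values from -0.86 to -0.62 and limma adjusted p-values from 0.0556 to 0.261. The elongases of polyunsaturated chains were not called. Elovl2 was at -0.98 ± 0.43 in Sir2OE2 (adjusted p = 0.366), and Elovl5 ran from -0.17 in Sir2OE2 to 0.51 in Sir2OE1. Elovl3, known from brown fat and skin, lay between 0.10 and 0.38.

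Of the 9 binding proteins on 10 probes, Fabp5 and Fabp7 were called. Fabp5 (probe 20455, chromosome 3), the epidermal form, lay above 0 on every overexpressing array. Its Sir2OE2 arrays read 0.94, 0.51, 0.75 and 1.09 and its Sir2OE1 arrays 0.66, 0.51 and 0.29. The Sir2KD1 arrays read -0.35, -0.31 and -0.41 and the Sir2KD2 arrays -0.01, -0.15, 0.02 and -0.16. No overexpressing array overlapped a knockdown array, and the overexpressing lines overlapped each other. The call was in Sir2OE2, at 0.82 ± 0.12 (limma adjusted p = 0.00311, 1.77-fold), and was kept without each of the 14 arrays in turn. Sir2OE1 was at 0.49 ± 0.14 (adjusted p = 0.186) and Sir2KD1 at -0.35 ± 0.14 (0.222).

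Fabp7 (probe 7037, chromosome 10), the brain form, was called on opposite sides in Sir2OE1 and Sir2KD1. Its Sir2OE1 arrays read 0.75, 1.03 and 0.81 and its Sir2KD1 arrays -0.79, -0.45 and -0.94. The Sir2OE2 arrays read -0.36, 0.16, -0.10 and 0.02 and the Sir2KD2 arrays 0.54, 0.01, 0.36 and 0.06. Sir2OE1 lay above and Sir2KD1 below all arrays of the remaining lines. The fitted values were 0.87 ± 0.16 in Sir2OE1 (limma adjusted p = 0.0325) and -0.72 ± 0.16 in Sir2KD1 (0.0361). The lines of a kind were not called different: Sir2OE2 minus Sir2OE1 was -0.94 ± 0.21 (adjusted p = 0.140) and Sir2KD2 minus Sir2KD1 was 0.97 ± 0.21 (0.0803). The Sir2OE1 call ended without any Sir2OE1 slide, without Sir2OE2 slide 1, 3 or 4, without Sir2KD1 slide 1 or without Sir2KD2 slide 3, at 0.78 to 0.92 with limma adjusted p-values from 0.0509 to 0.215. The Sir2KD1 call ended without Sir2KD1 slide 1 or 3, Sir2KD2 slide 3, Sir2OE1 slide 2 or Sir2OE2 slide 3 or 4, at -0.72 to -0.62 with limma adjusted p-values from 0.0503 to 0.235.

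The remaining binding proteins were not called. Fabp3, the heart form, was at -0.82 ± 0.24 in Sir2OE2 (limma adjusted p = 0.126), -0.91 ± 0.28 in Sir2KD1 (0.121), -0.15 in Sir2OE1 and 0.21 in Sir2KD2. Fabp1, the liver form, had the largest fitted value of an uncalled member, 1.25 ± 0.76 in Sir2KD1 (adjusted p = 0.461), which rested on 1 array: slide 2 read 3.58 and the others -0.07 and 0.25. Fabp2, the intestinal form, lay between -0.29 and 0.34. The 2 probes of Fabp9, the testis form, lay between -0.20 and 0.11 and between -0.41 and 0.37.

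**Figure D2:**
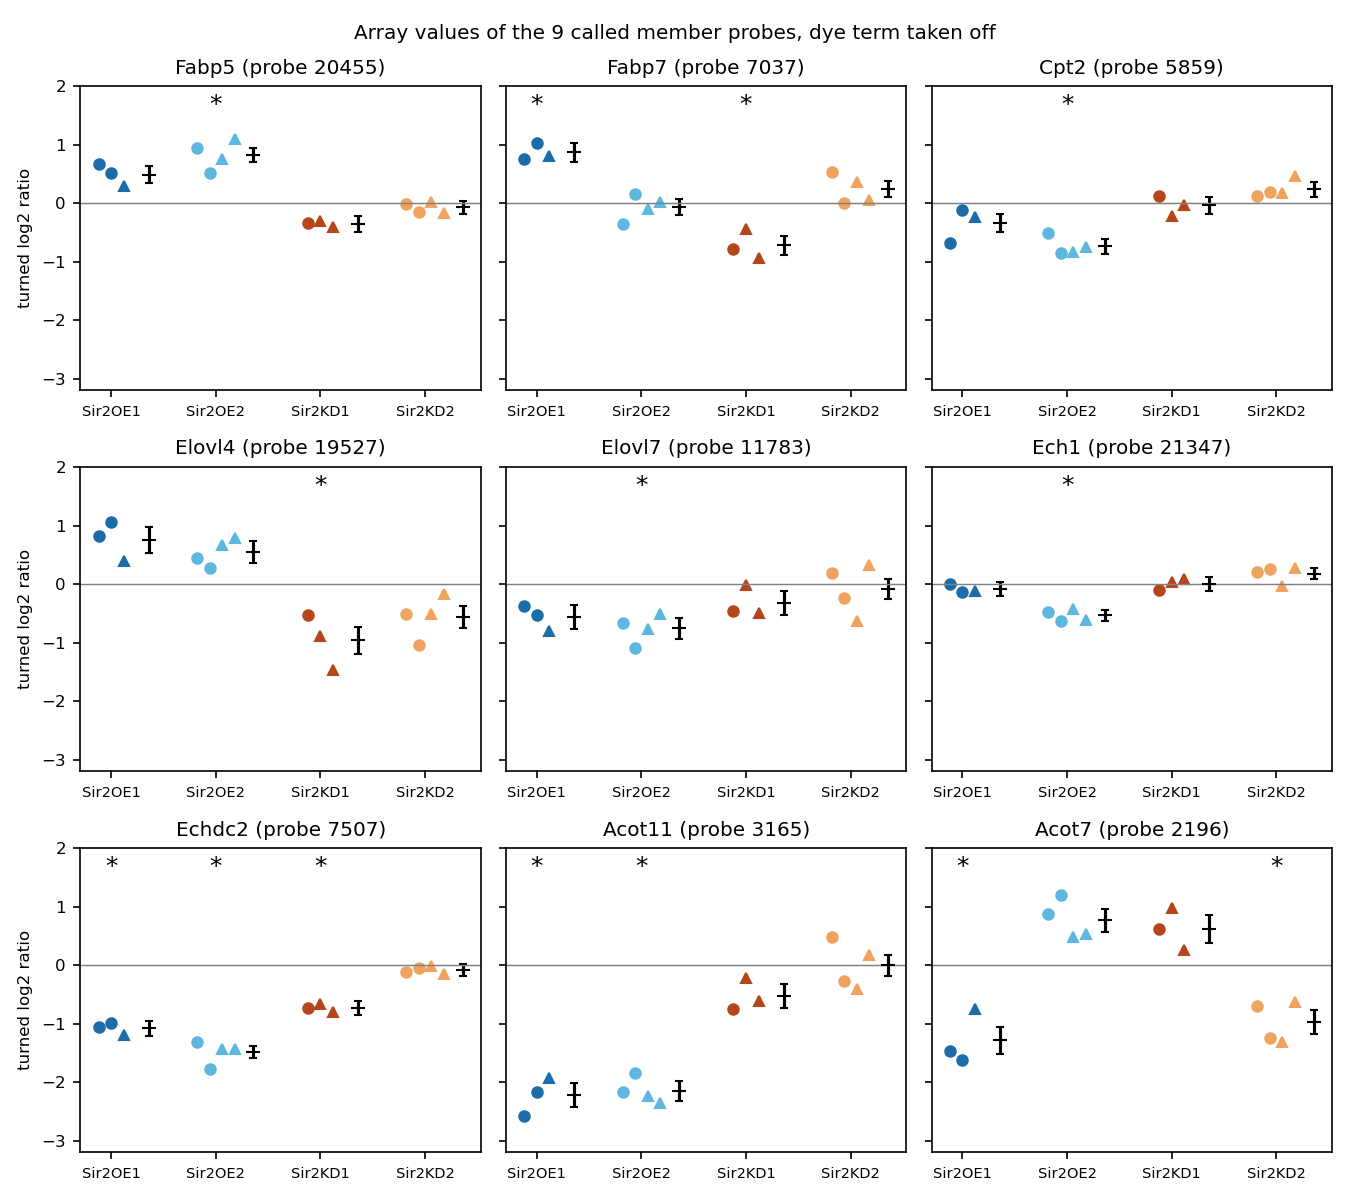
Turned log2 ratio of the 9 called member probes on each array, with the fitted dye term taken off; circles are arrays with the line in channel 2, triangles those with it in channel 1, and the black bar is the fitted value ± SE. An asterisk marks a line with an adjusted p under 0.05. Acot11 lies near -2 on all 7 overexpressing arrays, and Acot7 lies on opposite sides in the lines of each kind.

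The thioesterases held the largest turned log2 ratios of the 58 probes. Acot11 probe 3165 (chromosome 4) measures a thioesterase with a lipid-binding START domain that is known from brown fat. Its Sir2OE1 arrays read -2.58, -2.16 and -1.92, and its Sir2OE2 arrays -2.16, -1.84, -2.24 and -2.36. The Sir2KD1 arrays read -0.74, -0.22 and -0.62, and the Sir2KD2 arrays 0.48, -0.27, -0.41 and 0.18. The overexpressing lines overlapped each other and lay apart from every knockdown array. Fitted values were -2.22 ± 0.21 in Sir2OE1 (limma adjusted p = 0.000749, 4.67-fold), -2.15 ± 0.18 in Sir2OE2 (0.000112, 4.44-fold), -0.52 ± 0.21 in Sir2KD1 (0.230) and -0.01 ± 0.18 in Sir2KD2 (0.994). Sir2OE2 minus Sir2OE1 was 0.07 ± 0.27, with a 95% interval from -0.53 to 0.67. Both calls were kept without each of the 14 arrays in turn.

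The other Acot11 probe did not follow it. Probe 19224 read -0.09, -0.24 and -0.17 in Sir2OE1 and -0.23, -0.34, -0.82 and 0.26 in Sir2OE2. Its fitted values were -0.17 ± 0.37, -0.28 ± 0.32, -0.35 ± 0.37 and -0.67 ± 0.32 in Sir2OE1, Sir2OE2, Sir2KD1 and Sir2KD2, with limma adjusted p-values from 0.395 to 0.966. In Sir2OE2 its 95% interval ran from -0.98 to 0.41, which does not reach the -2.15 of probe 3165. The probes thus disagree, and the Acot11 result is that of 1 probe of 2.

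Acot7 (probe 2196, chromosome 4), a cytosolic enzyme abundant in brain that splits long-chain acyl-CoA, differed between lines of the same kind. Its Sir2OE1 arrays read -1.48, -1.63 and -0.76, and its Sir2OE2 arrays 0.87, 1.20, 0.48 and 0.53. The Sir2KD1 arrays read 0.62, 0.98 and 0.26, and the Sir2KD2 arrays -0.70, -1.24, -1.31 and -0.63. All arrays of Sir2OE1 and Sir2KD2 were below 0 and all of Sir2OE2 and Sir2KD1 above it. Fitted values were -1.29 ± 0.24 in Sir2OE1 (limma adjusted p = 0.0303, 2.44-fold), 0.77 ± 0.20 in Sir2OE2 (0.0816), 0.62 ± 0.24 in Sir2KD1 (0.212) and -0.97 ± 0.20 in Sir2KD2 (0.0461, 1.96-fold). The Sir2OE1 call ended without Sir2OE1 slide 1 or 2, Sir2OE2 slide 1, 3 or 4 or Sir2KD1 slide 1, at -1.29 to -1.12 with limma adjusted p-values up to 0.215. The Sir2KD2 call was kept without Sir2KD1 slide 2 or 3 or Sir2OE1 slide 3, and ended without any of the other 11 arrays, at -1.11 to -0.83 with limma adjusted p-values from 0.0540 to 0.203.

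Acot9 and Acot10, mitochondrial thioesterases, were on the plus side in all 4 lines and were not called. Acot10 was at 0.27, 0.58 ± 0.16 (limma adjusted p = 0.0956), 0.63 ± 0.19 (0.108) and 0.51 ± 0.16 (0.180) in Sir2OE1, Sir2OE2, Sir2KD1 and Sir2KD2. Acot9 ran from 0.13 in Sir2OE1 to 0.74 ± 0.23 in Sir2KD1 (adjusted p = 0.124). These genes are near-identical copies, so a probe may read both, and their values are uncertain.

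Lines of the same kind share their control RNA, which cancels in the difference between them. Between the overexpressing lines, 1 of 58 member probes was called, Acot7, where 0.323% of all probes were. Sir2OE2 minus Sir2OE1 was 2.05 ± 0.31 for it (limma adjusted p = 0.0241, 95% interval 1.36 to 2.74), with all 4 Sir2OE2 arrays on the plus side and all 3 Sir2OE1 arrays on the minus side. This call ended without Sir2OE1 slide 1 or 2 or any 1 of the 4 Sir2OE2 slides, at 1.84 to 2.15 with limma adjusted p-values up to 0.127. Between the knockdown lines, no member probe was called by limma, where 0.689% of all probes were. At an unadjusted p under 0.05 there were 10 of 58 (17.2%), where 11.8% of all probes passed. The largest was again Acot7, at -1.59 ± 0.31 for Sir2KD2 minus Sir2KD1 (adjusted p = 0.0543), followed by Fabp3 at 1.12 ± 0.37 (0.253).

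The mean of the overexpressing lines was then set against the mean of the knockdown lines, on the assumption that both kinds hold the same channel as numerator. The kinds also differ in their control RNA, which does not cancel here, in how the lines were made and in the dose of G418. These differences cannot be told apart from that in Sirt1. In this contrast 5 of 58 member probes (8.62%) were called, where 2.66% of all probes were. With the knockdown ratios given the other sign the count was again 5, where 4.99% of all probes were called, and with the values read as line over control it was 5, where 15.0% were. Fabp5 and Elovl4 were higher on the plus side in overexpression, by 0.87 ± 0.13 (limma adjusted p = 0.00468) and 1.41 ± 0.21 (0.00460). Acot11 probe 3165, Echdc2 and Cpt2 were lower, at -1.92 ± 0.19 (0.000369), -0.88 ± 0.11 (0.00194) and -0.64 ± 0.14 (0.0357). Fabp7 was just outside, at 0.64 ± 0.15 (0.0529). The calls for Acot11, Echdc2, Elovl4 and Fabp5 were kept without each of the 14 arrays in turn. That for Cpt2 was kept without Sir2KD1 slide 2, Sir2OE1 slide 2 or Sir2OE2 slide 1, and ended without any of the other 11 arrays, at -0.69 to -0.56 with limma adjusted p-values from 0.0593 to 0.130. With the line as the replicate, 2 against 2, none of the 5 was called, with limma adjusted p-values from 0.392 to 0.629. With the knockdown ratios given the other sign, Acot11 (-2.45), Echdc2 (-1.69), Acad10 (-1.14), Elovl7 (-0.87) and Acot10 (0.99) were called, Fabp5 (0.44) and Cpt2 (-0.44) were not, and Elovl4 turned to -0.107.

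**Figure D3:**
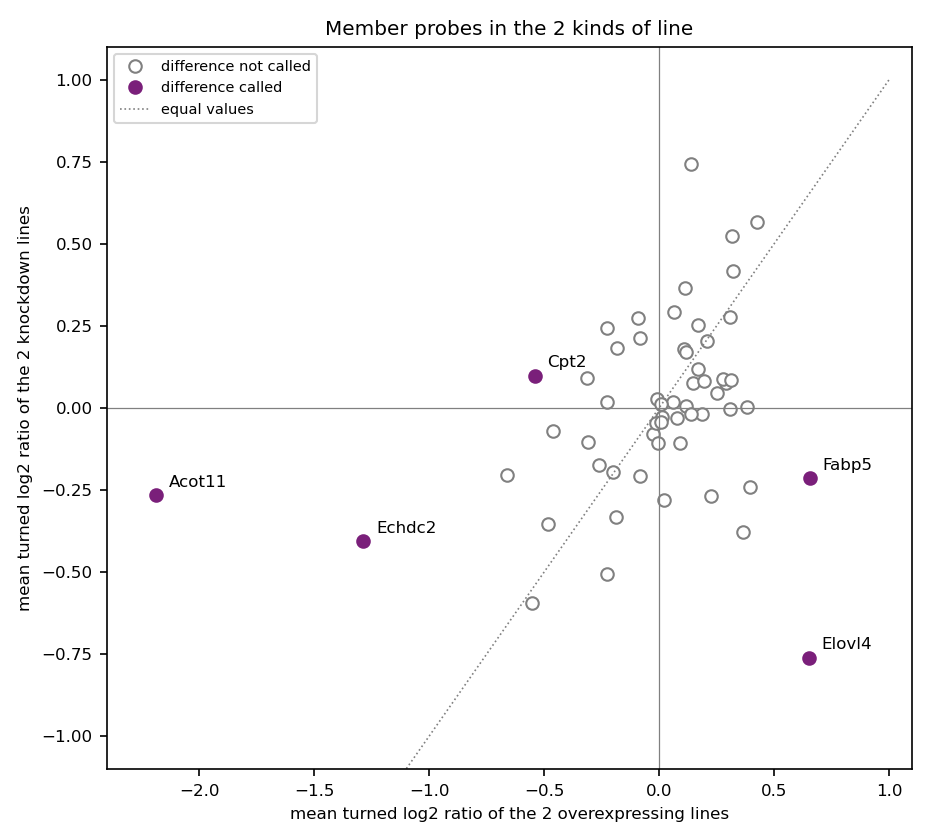
Mean turned log2 ratio of each member probe in the overexpressing lines (horizontal) and in the knockdown lines (vertical); filled points are the 5 probes called in the difference, and the dotted line marks equal values. Acot11 and Echdc2 lie far to the left, and Fabp5 and Elovl4 lie in the lower right.

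Acot11, Cpt2 and Echdc2 lie on the same stretch of chromosome 4, which was looked at after their values were seen. In the RefSeq gene order of GRCm38.p6 the stretch from Acot11 to Echdc2 holds 19 measured genes on 24 probes. On it, 3 probes were called on the minus side in Sir2OE1, 4 in Sir2OE2, 2 in Sir2KD1 and 0 in Sir2KD2, and none on the plus side. In these lines 0.594%, 1.38%, 1.98% and 0.74% of all probes were called on the minus side. Acot11 and Echdc2, which set the ends of the stretch, are among its calls. At its far end Cpt2, the gene 4930407G08Rik, Scp2 and Echdc2 follow each other among the measured genes. Scp2, the sterol carrier protein whose long form is a peroxisomal thiolase, was on the minus side on all 7 overexpressing arrays, from -0.85 to -0.47. It was called in both overexpressing lines, at -0.67 ± 0.14 in Sir2OE1 (limma adjusted p = 0.0471) and -0.69 ± 0.11 in Sir2OE2 (0.00772), and was at -0.16 ± 0.14 and 0.28 ± 0.11 in Sir2KD1 and Sir2KD2. Without Acot11, Cpt2, Scp2 and Echdc2, none of the other 19 probes of 15 genes was called in Sir2OE1, Sir2OE2 or Sir2KD2, and their medians there were -0.07, -0.03 and -0.10. In Sir2KD1, 1 of these was called, Dio1, a deiodinase, at -1.13 ± 0.20 (adjusted p = 0.0126). Since the stretch was chosen on these values, no test is given.

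**Figure D4:**
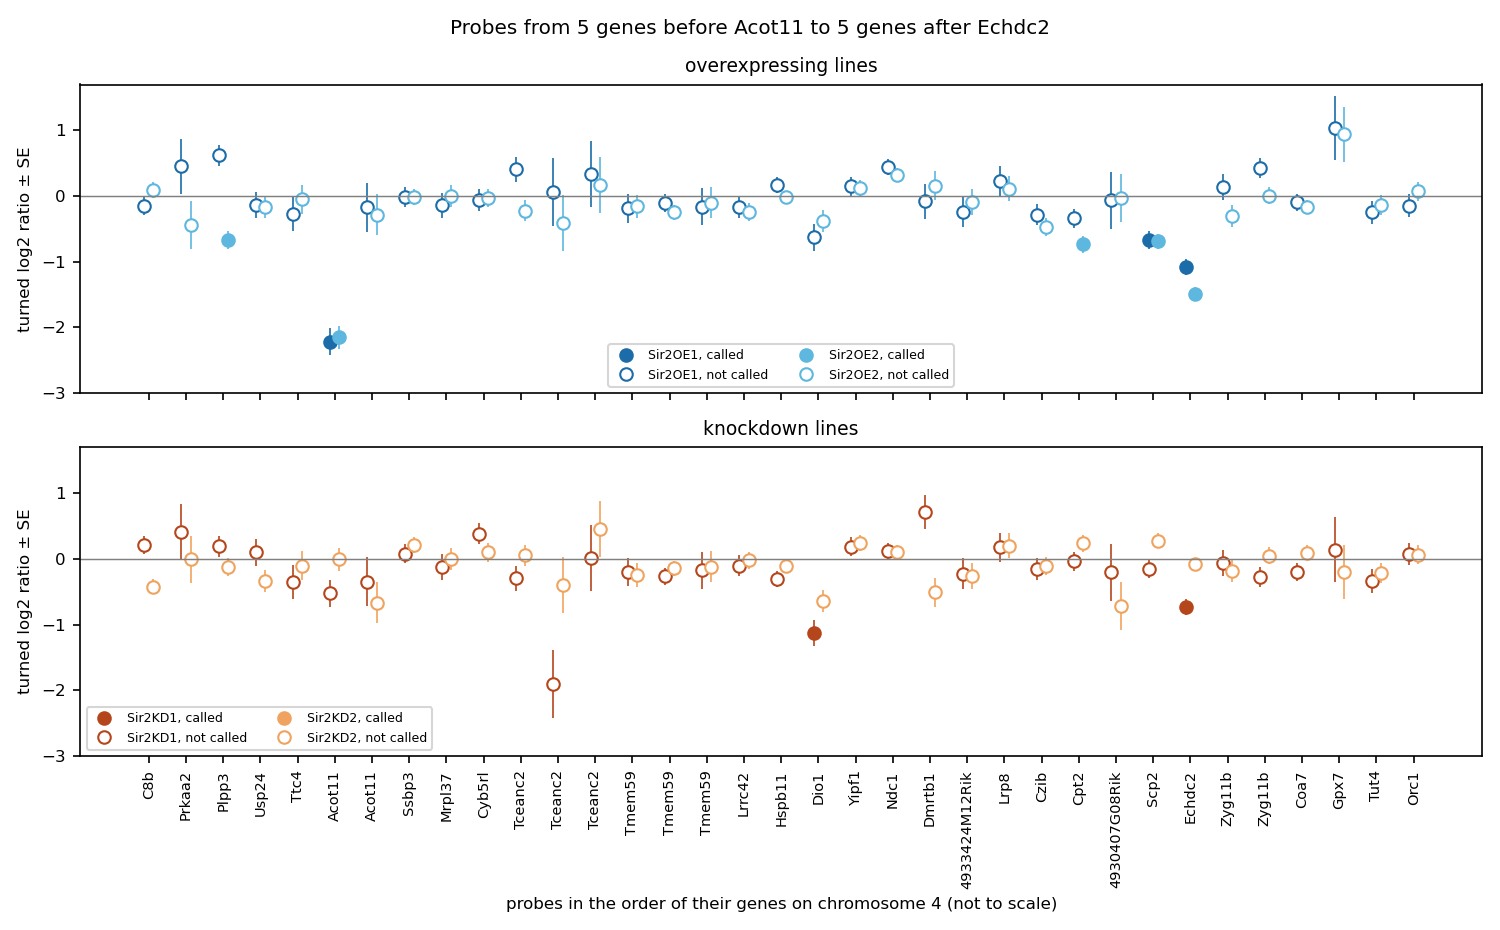
Turned log2 ratio ± SE of each probe from 5 genes before Acot11 to 5 genes after Echdc2, in gene order on chromosome 4 and not to scale, for the overexpressing lines (top) and the knockdown lines (bottom). Filled points are called; in the overexpressing lines those between Acot11 and Echdc2 belong to Acot11, Cpt2, Scp2 and Echdc2, with most other points near 0.

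Genes of the same pathways outside the members were read from 8 lists. Together they held 106 measured genes on 114 probes, of which 0 were called plus and 1 minus in Sir2OE1, 0 and 5 in Sir2OE2, 1 and 3 in Sir2KD1, and 2 and 1 in Sir2KD2. The called shares were 0.877%, 4.39%, 3.51% and 2.63%, where 1.06%, 2.81%, 3.59% and 1.34% of all probes were called in these lines, and each rests on 1 to 5 probes. Among 16 beta-oxidation partners, Scp2 was called as above. Ivd, which oxidises isovaleryl-CoA from leucine, was called in Sir2OE2 at -0.61 ± 0.12 (limma adjusted p = 0.0169), and Gcdh, which acts on glutaryl-CoA from lysine, in Sir2KD2 at 1.01 ± 0.15 (0.00883). Of 14 genes of uptake and the carnitine shuttle, Slc27a4, a fatty acid transport protein, was called in Sir2OE2 at -0.49 ± 0.10 (0.0200) and Dbi, the acyl-CoA binding protein, in Sir2KD2 at 0.45 ± 0.09 (0.0467). Of 15 peroxisome genes, Pex7, the import receptor that brings in the thiolase, was called in Sir2OE2 at -0.80 ± 0.17 (0.0327).

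Among 17 genes of malonyl-CoA and synthesis, 1 of 3 probes for Acaca, acetyl-CoA carboxylase, was called in Sir2KD1 at 1.52 ± 0.25 (limma adjusted p = 0.00741). The other Acaca probes were at -0.55 ± 0.35 and 0.17 ± 0.24 in that line, so the probes disagree. Hacd1, the dehydratase that works with the elongases, was called in Sir2KD1 at -1.30 ± 0.17 (0.00192) and was at -0.65 ± 0.14 (0.0561) in Sir2KD2, 0.76 ± 0.17 (0.0705) in Sir2OE1 and 0.18 ± 0.14 in Sir2OE2. Its order over the lines was that of Elovl4, with both overexpressing lines above both knockdown lines. Of 15 genes of lipolysis and storage, Mgll, the monoacylglycerol lipase, was called in Sir2OE2 at -1.68 ± 0.32 (0.0169) and was at -1.80 ± 0.38 (0.0580) in Sir2OE1. Dgat2, the last step of triglyceride synthesis, was called in Sir2KD1 at -1.06 ± 0.21 (0.0210). None of 5 ketone genes was called in any line; at an unadjusted p under 0.05 there were 0, 0, 1 and 1 in Sir2OE1, Sir2OE2, Sir2KD1 and Sir2KD2.

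Of 16 regulators of oxidation, which held the measured PPAR and RXR genes and Ppargc1a, only Hnf4a was called. Its probe 3415 was at -1.17 ± 0.21 in Sir2KD1 (limma adjusted p = 0.0123) and -0.97 ± 0.18 in Sir2KD2 (0.0246), while its probe 18895 was at 0.37 ± 0.13 and 0.08 ± 0.11 there and was not called. None of 14 textbook PPAR targets outside the members was called in any line; at an unadjusted p under 0.05 there were 2, 2, 1 and 2 in Sir2OE1, Sir2OE2, Sir2KD1 and Sir2KD2. Their medians were -0.09, -0.09, -0.02 and 0.01 in that order.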

How the data were processed

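Per the labels, total RNA of 4 MIN6 lines was hybridised on 14 arrays with the channels exchanged between slides of a line. The authors deposited log2 ratios of the channels. Scanner software, background correction and normalization were not given in the sources used here. In each kind, the values of a complete probe added up to 0 on 6 of its 7 arrays, with Sir2OE1 slide 2 and Sir2KD1 slide 2 outside the sums, so the ratios had been centred per probe. With no intensities at hand, precision is limited by how many arrays there are, and how far a probe stood above background is not known.

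Signs were turned for arrays whose channel 1 held the line. All 14 arrays entered 1 fit by limma 3.58.1 in R 4.3.3, with line coefficients and 1 dye term for each kind, which also takes up the centring. Probes measured on at least 2 arrays in each line were tested (23230 of 23232), with Benjamini-Hochberg adjustment and a threshold of 0.05. The fit was tested on simulated data. Of the probes, 16885 had 1 gene symbol in the platform annotation, 143 had several and 6204 were not listed; all 58 member probes were updated through Entrez. Whether the slide numbers pair arrays is not known (see the processing checks at the end).

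Named members were those called in a line or contrast, those with several probes, and the 3 of each role with the largest absolute mean over the lines. Members, pathway lists, marker lists and tests were chosen with earlier results of these data known. The chromosome 4 stretch, the 9 oxidation genes, the motifs and the printed start regions were chosen after the values were seen and carry no test. Alternatives covered the dye term, the direction of the ratio, array scaling, the arrays in the fit, filters, moderation, a slide block and leaving out each array.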

Additional observations from a re-analysis of the deposited data

Results flagged for a closer look

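Acot7 differed between the overexpressing lines. Sir2OE2 minus Sir2OE1 was 2.05 on the turned log2 scale by limma, and every array of each line lay on its own side of 0. The difference between the overexpressing and the knockdown lines was called for 5 member probes. It was 0.869 for Fabp5, 1.41 for Elovl4, -0.639 for Cpt2, -0.88 for Echdc2 and -1.92 for Acot11 probe 3165. In the 18 sets of 4 arrays of a called member in a line, no array stood apart from the others by Dixon's ratio at its 95% critical value.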

How the results depend on the processing

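Centring each array on its median, 1 shared dye term, complete probes alone and leaving out probes with fixed ratios kept the count of called members within 1.5 times in the 4 lines. Percentages here are shares of all probes called under the same setting. Without a dye term, the counts were 11 in Sir2OE2 (5.12%), 8 in Sir2KD1 (8.04%), 2 for Sir2OE2 minus Sir2OE1 (1.21%), 3 for Sir2KD2 minus Sir2KD1 (2.48%) and 8 for overexpression minus knockdown (5.67%); 1 shared dye term gave 2 for Sir2KD2 minus Sir2KD1 (1.39%). Scaling the arrays gave 10 in Sir2OE2 (4.38%) and 0 in Sir2KD1 (1.74%), and robust moderation 0 in Sir2KD2 (1.27%). Fitting each kind on its own arrays left 2 in Sir2OE1 (0.448%), 3 in Sir2OE2 (1.98%) and 0 in Sir2KD1 (0.943%), Sir2KD2 (0.280%) and Sir2OE2 minus Sir2OE1 (0.0990%); fewer arrays then share the estimate of the spread, and overexpression minus knockdown has no such fit. The slide number as a replicate block left 0 in each of the 4 lines (0% to 0.659%) and for Sir2OE2 minus Sir2OE1 (0.0430%), and 4 for overexpression minus knockdown (1.12%). Deviations of arrays of the same slide number had r from -0.389 to 0.237 over 19 pairs, with a mean of -0.0659. Arrays of different slide numbers had r from -0.538 to 0.498. Taking off line means and dye terms ties the deviations within a kind, so this check cannot decide whether the numbers pair the arrays. With the line as the replicate, overexpression minus knockdown had 0 (0%). The reading as line over control also had no dye term, so it changed several settings at once. Read as line over control, the values gave 2 in Sir2OE2 (1.98%) and 0 for Sir2OE2 minus Sir2OE1 (0%), and turned the sign of Fabp7 (-0.152) in Sir2OE1, Fabp5 (-0.0383), Elovl7 (0.132) and Ech1 (0.0702) in Sir2OE2, Fabp7 (0.409), Elovl4 (0.645) and Echdc2 (0.235) in Sir2KD1 and Acot7 (0.242) in Sir2KD2. With the knockdown sign turned, Elovl4 was at -0.107 for overexpression minus knockdown. Without 1 array at a time, counts ran from 2 to 4 in Sir2OE1, 3 to 7 in Sir2OE2, 1 to 4 in Sir2KD1, 0 to 2 in Sir2KD2, 0 to 1 for each difference between lines of a kind and 4 to 6 for overexpression minus knockdown. Over the 20 called member values, 202 of 280 such fits kept the call and none reversed it; of 205 other fits 147 kept it, 49 lost it and 9 reversed. Except as stated, the causes were not tested. Values and calls of single genes without 1 array at a time are given for members alone.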

Other observations

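Different members were called when the deposited values were read as line over control with the centring undone. Cpt1b, the muscle form of the outer carnitine enzyme, was then at -1.83 in both overexpressing lines, against 0.12 and 0.06 in the reading used above. Its limma adjusted p-values were 7.74e-05 in Sir2OE1 and 2.09e-05 in Sir2OE2. Undoing the centring loses any factor common to a probe's ratios, which would lower all arrays of a kind alike. Whether the Cpt1b value holds such a shift was not tested, and its p-values do not measure it. Acot12, a cytosolic acetyl-CoA thioesterase, was then called on the plus side in Sir2OE1 (0.63), Sir2KD1 (1.26) and Sir2KD2 (0.91), against 0.12, -0.17 and 0.20. Acss2 was called at 0.56 in Sir2OE1 and 0.53 in Sir2OE2, against 0.17 and 0.07. The limit given for Cpt1b holds for Acot12 and Acss2 too. With no dye term in that fit, a difference between the dyes was not taken off either. In that reading 2558 of all probes were called in Sir2OE1 and 461 in Sir2OE2, against 247 and 653.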
